A study of Rattus norvegicus with 12 samples.

Results

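Protein kinase C (PKC) isoforms and 4 of their best-known neuronal substrates were followed in the CA1 field of the rat hippocampus. The members are 9 of the 10411 genes named here by a probe set with 1 symbol: the kinases Prkca, Prkcb, Prkcd, Prkce and Prkcz, and the substrates Marcks, Marcksl1, Nrgn and Gap43. All probe sets whose only annotated gene symbol is 1 of these were taken, which gave 16 of the 15866 probe sets that are not manufacturer's controls, 6 for the kinases and 10 for the substrates. A probe set is a group of short probes designed against 1 transcript, summarised to 1 signal per array. Of the 16, 15 had a mean signal of at least 4 on the log2 scale over all arrays and were tested. The 1 left out is the dimmest of the 6 Marcks probe sets.

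The arrays compare 12 young male Long-Evans rats, 3 to 4 months old, with 1 Affymetrix RAE230A array from each animal. The labels name no genotype or drug. All 12 had learned a standard water maze, and 2 to 3 weeks later swam 1 session of 8 trials in a maze new to them. In the control task group (n = 6) the visible platform moved between trials and the surroundings gave no useful cues, while in the spatial learning group (n = 6) the visible platform stayed in place among orienting cues. Every rat then had a 90 second trial without the platform, 1 hour after the last training trial, and was killed directly afterwards, so each group had swum and the comparison is between 2 forms of swimming. The rats of these groups are called control rats and learning rats below. The tissue is dissected CA1, a mixture of cell types, in which fewer cells of a type and less RNA per cell cannot be told apart.

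PKC is a family of serine and threonine kinases that act where receptors coupled to Gq proteins, or phospholipase C, release diacylglycerol and calcium. The conventional isoforms (alpha, beta) need both signals, a second class (delta, epsilon) need diacylglycerol without calcium, and the atypical isoform zeta needs neither. In hippocampal pyramidal neurons PKC has long been studied for its part in long-term potentiation. Its substrates MARCKS and MARCKS-like protein bind the plasma membrane and actin and release them when phosphorylated, while neurogranin (Nrgn, postsynaptic) and GAP-43 (presynaptic) hold calmodulin and release it when phosphorylated.

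None of the 9 genes passed the test between the groups. The largest differences lay in Marcks, where 3 of the 4 bright probe sets stood 10.6% to 21.6% lower after spatial learning and the brightest stood 1.52% lower. Both Prkcb probe sets stood higher, by 7.21% and 8.92%, and the bright Gap43 probe set stood 9.75% lower. Differences are given on the log2 scale as learning rats minus control rats, and none of the 15 passed at an adjusted p of 0.05 (limma, Benjamini-Hochberg over 9610 probe sets, smallest member adjusted p 0.400). Over all 9610 probe sets 0 passed (0% called), while 1048 had an unadjusted limma p under 0.05 (10.9%), and the exact rank-sum test called 0 as well, with 896 at an unadjusted p under 0.05. Of the 15 member probe sets 7 had an unadjusted limma p under 0.05, 3 of them higher (6.36% of all tested probe sets were) and 4 lower (4.55% of all were). These 7 belong to 3 genes, Marcks, Prkcb and Gap43, and probe sets of 1 gene are not independent of each other. A further fit left out 3 arrays picked as high in choroid plexus or meningeal transcripts (control task replicates 3 and 6, spatial learning replicate 6). In it 7 member probe sets had an unadjusted limma p under 0.05 (11.6% of all tested probe sets then did). Prkcd and Nrgn were now among them, and Prkcb 1368240_a_at and Gap43 1371287_at no longer. With all 12 arrays no member had groups that did not overlap, as 0.635% of all tested probe sets had.

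**Figure D1:**
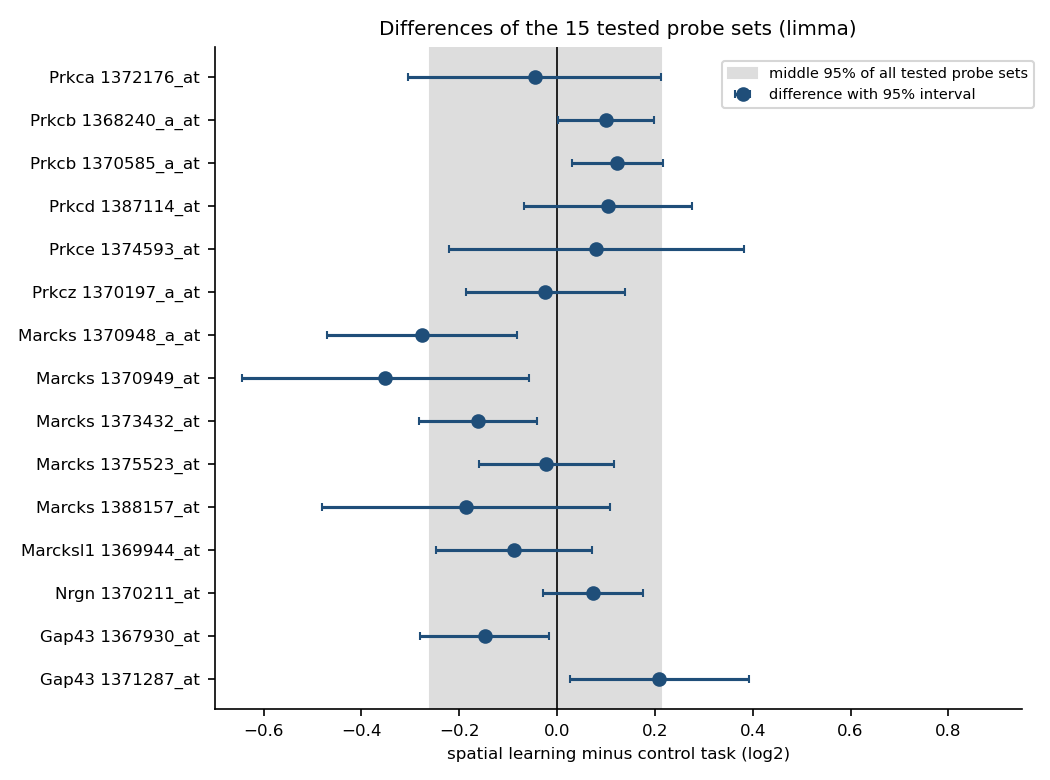
Difference in signal (spatial learning minus control task, log2) of the 15 tested probe sets, as points with 95% limma intervals; the grey band holds the middle 95% of all 9610 tested probe sets, from -0.26 to 0.21. Marcks 1370948_a_at (-0.28) and 1370949_at (-0.35) lie to the left of the band, and the remaining 13 lie inside it.

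The tissue and the arrays gave the following values. The CA1 pyramidal markers Wfs1, Fibcd1 and Itpka had mean signals of 12.03, 10.11 and 11.00, and 6 of the 7 CA1 markers with a probe set lay above 4. The per-array mean of the 7 ranged from 9.56 to 9.78 in control rats and from 9.64 to 9.91 in learning rats, a difference of 0.15 (exact permutation p = 0.0152). Wfs1, Fibcd1, Itpka, Pou3f1 and Mpped1 stood higher in learning rats. Ccn3 had a mean of 11.03 in each group, and Spink8 of 2.66 in control rats and 2.65 in learning rats. The 3' minus 5' signal of a control transcript grows as RNA degrades. For hexokinase it ranged from 1.35 to 1.55 in control rats and from 1.55 to 1.82 in learning rats (exact permutation p = 0.00433). For beta-actin this signal differed by 0.096 (exact permutation p = 0.0779) and for GAPDH by -0.00019 (exact permutation p = 0.998). The part of the hexokinase gap in the differences below was not tested beyond a fit with it as a covariate. In that fit 2 of the 15 member probe sets had an unadjusted limma p under 0.05 (6.30% of all tested probe sets had). Because the gap nearly follows the groups, the fit cannot separate gap from group. The standard errors of all 15 were larger in it, for Marcks 1370948_a_at 0.131 against 0.090. Control task replicate 3 stood highest of its group in the 8 measured choroid plexus markers, with a mean of 5.72 against a group median of 4.49, while 5 of the 8 (Kl, Folr1, Otx2, Kcnj13 and F5) lay below 4. Control task replicate 6 stood highest of its group in the 12 meningeal markers, with a mean of 5.90 against a group median of 4.73, and the highest spatial learning array reached 5.64. Of these 12 markers 6 lay below 4. Over all arrays the choroid plexus mean differed by -0.47 (exact permutation p = 0.0260), its 6 spatial learning arrays lying between 4.07 and 4.24. Most of this came from Ttr, with means of 7.56 in control rats and 4.23 in learning rats. Enpp2 and F5 also stood lower in learning rats, while Kl, Kcne2, Folr1, Otx2 and Kcnj13 stood higher. Of the 6 thalamus and striatum markers Lef1, Drd1 and Drd2 lay below 4. The mean of the 6 spanned 4.47 to 4.68 in control rats and 4.28 to 4.55 in learning rats (difference -0.15, exact permutation p = 0.0238). Most of this came from Slc17a6, with means of 7.25 in control rats and 6.52 in learning rats, and Drd1 alone stood higher in learning rats. The dentate granule and microglial means differed by -0.16 each (exact permutation p = 0.0996 and 0.0931). The meningeal mean differed by -0.11 (exact permutation p = 0.470), and those of the remaining lists by -0.06 to 0.07. The marker p-values are not adjusted over the 11 marker lists read. The part of the markers in the member differences was not tested beyond leaving out the arrays named. In choroid plexus markers the control median, 4.49, lay above the highest spatial learning array, 4.24. Leaving out control task replicates 3 and 6 therefore does not take away all control arrays above that level.

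The kinases are described first. Prkcb encodes PKC beta, the conventional isoform, whose 2 splice forms share most of their sequence. Its brighter probe set, 1370585_a_at, had a lowest, median and highest signal of 12.73, 12.77 and 12.92 in control rats and of 12.76, 12.95 and 13.00 in learning rats. Of the 6 spatial learning arrays 5 lay above the highest control, and the 1 that did not, replicate 6, lay close to the lowest control. The difference was 0.12 (SE 0.04, 95% interval 0.03 to 0.22, limma adjusted p = 0.423; exact permutation p = 0.0303, unadjusted). The other Prkcb probe set, 1368240_a_at, spanned 11.81 to 11.98 (median 11.90) in control rats and 11.82 to 12.07 (median 12.00) in learning rats. There 4 spatial learning arrays lay above all controls, and the difference was 0.10 (SE 0.05, 95% interval 0.0022 to 0.20, limma adjusted p = 0.447; exact permutation p = 0.0628). Both probe sets are annotated to the same accession. No agreement of their deviations from the group means was detected over the 12 arrays (Pearson r = -0.123, permutation p = 0.705; Spearman rho = -0.105, permutation p = 0.757). Without the 2 arrays farthest from the median of 1368240_a_at (control task replicate 4 and spatial learning replicate 3) r was -0.301. Spatial learning replicate 6, low in 1370585_a_at, stayed in.

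Prkca, the conventional alpha isoform, is measured by 1 probe set. Its signal spanned 7.30 to 7.62 (median 7.35) in control rats and 6.88 to 7.73 (median 7.42) in learning rats, which had both the lowest and the highest array. The difference was -0.05 (SE 0.12, 95% interval -0.30 to 0.21, limma adjusted p = 0.917), and it turned to 0.05 without spatial learning replicate 4, the array at 6.88. It was -0.0064 and -0.0060 without control task replicates 4 and 6, -0.07 without control task replicate 3 and -0.12 without spatial learning replicate 5.

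The isoforms that need no calcium are Prkcd and Prkce. Prkcd (PKC delta) had the lowest signal of the kinases, from 5.27 to 5.78 (median 5.47) in control rats and from 5.49 to 5.67 (median 5.58) after spatial learning. All 6 spatial learning arrays lay above the control median and none above the highest control, and the difference was 0.10 (SE 0.08, 95% interval -0.07 to 0.28, limma adjusted p = 0.666). It was 0.06 without control task replicate 4, and 0.17 without control task replicate 6 (limma adjusted p = 0.368). Prkce (PKC epsilon) spanned 9.62 to 10.36 (median 9.83) in control rats and 9.71 to 10.33 (median 9.84) in learning rats. It had the widest interval of the kinases, a difference of 0.08 (SE 0.14, 95% interval -0.22 to 0.38, limma adjusted p = 0.865), and the group medians nearly coincided. Single arrays moved it from 0.0070, without spatial learning replicate 5, to 0.18, without control task replicate 6; it was 0.03, 0.04 and 0.01 without control task replicates 1 and 3 and spatial learning replicate 3, and 0.13 without spatial learning replicate 6.

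Prkcz encodes the atypical isoform zeta, whose gene also gives rise in brain to PKM zeta, a constantly active form that lacks the regulatory part. Whether this probe set separates the forms is not given in the sources used here. The signal spanned 9.17 to 9.48 (median 9.33) in control rats and 9.04 to 9.49 (median 9.33) in learning rats. The difference was -0.02 (SE 0.08, 95% interval -0.19 to 0.14, limma adjusted p = 0.928). Its sign turned in 4 of the 16 other fits that estimate the difference anew.

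Taking the brighter probe set of Prkcb, the kinases had the same signal order in 12 of 12 arrays: Prkcb, Prkce, Prkcz, Prkca and Prkcd. The narrowest step was that from Prkce to Prkcz, between 0.20 and 1.14 in any array, and the widest was from Prkcb to Prkce, between 2.56 and 3.15. Signals of different probe sets depend on the sequence of their probes, so this order is one of signals and not of transcript amounts.

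**Figure D2:**
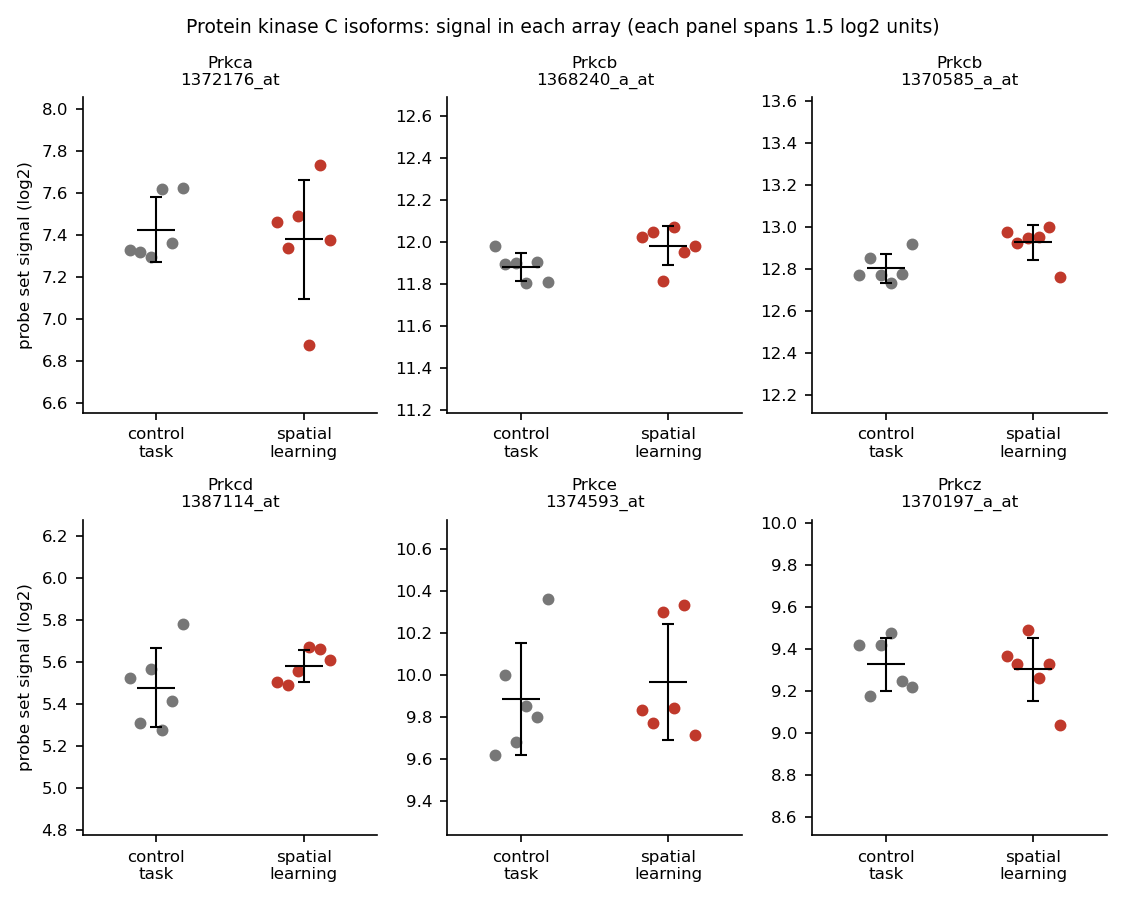
Signal (log2) of the 6 kinase probe sets in each array, grey for the control task (n = 6) and red for spatial learning (n = 6), with bars for the mean ± SD; each panel has its own axis, of the same span. In Prkcb 1370585_a_at 5 of the 6 spatial learning arrays lie above the highest control at 12.92, while in the other panels the groups overlap more widely.

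Among the substrates, Marcks (the myristoylated alanine-rich C kinase substrate) has 6 probe sets, of which 4 are bright. Probe set 1370948_a_at spanned 8.73 to 9.26 (median 9.16) in control rats and 8.65 to 9.06 (median 8.81) in learning rats. All 6 spatial learning arrays lay below the control median, and only control task replicate 6, at 8.73, lay among them. The difference was -0.28 (SE 0.09, 95% interval -0.47 to -0.08, limma adjusted p = 0.400; exact permutation p = 0.0260).

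Probe set 1370949_at, annotated to the same accession, spanned 8.20 to 8.61 (median 8.35) and 7.32 to 8.23 (median 8.14) in the same order of groups. Spatial learning replicate 1, at 7.32, lay far below the other 5, the next of which stood at 8.09. The difference was -0.35 (SE 0.14, 95% interval -0.65 to -0.06, limma adjusted p = 0.429; exact permutation p = 0.00649), and -0.21 without that array. Probe set 1373432_at, annotated to another accession, spanned 9.10 to 9.47 (median 9.35) in control rats and 9.11 to 9.26 (median 9.16) in learning rats. Its difference was -0.16 (SE 0.06, 95% interval -0.28 to -0.04, limma adjusted p = 0.420; exact permutation p = 0.0216), and again all 6 spatial learning arrays lay below the control median.

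The brightest Marcks probe set, 1375523_at, did not share this pattern. It spanned 9.69 to 10.10 (median 9.78) in control rats and 9.72 to 9.89 (median 9.76) in learning rats, with 3 of 6 spatial learning arrays on each side of the control median. The difference was -0.02 (SE 0.06, 95% interval -0.16 to 0.12, limma adjusted p = 0.922). Of the 2 dim probe sets, 1388157_at spanned 4.20 to 5.03 in control rats and 4.15 to 4.43 in learning rats (difference -0.19, SE 0.14, limma adjusted p = 0.652; -0.07 without control task replicate 4, the array at 5.03), and 1389838_at stayed between 2.67 and 2.74 in all 12 arrays and was not tested.

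Whether the Marcks probe sets differ from each other was tested on the gap between 2 probe sets within each array. Between 1370949_at and 1375523_at the mean gap was -1.44 ± 0.24 in control rats and -1.77 ± 0.32 in learning rats (SD, n = 6 each; exact permutation p = 0.0584). For 1370948_a_at and 1373432_at against 1375523_at the change in the gap was -0.25 (exact permutation p = 0.117) and -0.14 (exact permutation p = 0.262). None of the 10 Marcks gaps passed after adjustment over the 1408 such gaps of all genes with several tested probe sets (smallest adjusted p 0.502), so a different change of the probe sets was not shown, nor was an equal one. Without control task replicate 6, left out after its values were seen, the change in the gap to 1375523_at was -0.42 for 1370949_at, -0.39 for 1370948_a_at and -0.24 for 1373432_at. In these 3 gaps the groups then did not overlap, as in 2.20% of all such gaps.

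Whether the Marcks groups overlap depends on control task replicate 6. In it 1370948_a_at, 1370949_at and 1373432_at stood at their lowest of the control task group and 1375523_at at its highest, 10.10 against at most 9.81 in the other 5. Without this array, which is also the control array highest in meningeal markers, the spatial learning arrays of all 3 lower probe sets lay below every control, as they did on one side or the other in 1.86% of all tested probe sets. The differences were then -0.35 (limma adjusted p = 0.0864), -0.39 (limma adjusted p = 0.348) and -0.21 (limma adjusted p = 0.0933) for 1370948_a_at, 1370949_at and 1373432_at, none past 0.05, while 1375523_at stood at 0.03. The array was singled out after its values were seen, and without it 3 of all 9610 probe sets passed (0.0312%).

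Over the 12 arrays the deviations of the Marcks probe sets from their group means gave no pair past the threshold after adjustment. For 1370948_a_at and 1373432_at Pearson r was 0.631 (permutation p = 0.0869) and Spearman rho 0.329 (permutation p = 0.306), and r fell to 0.0878 without control task replicate 6 and spatial learning replicate 5. For 1373432_at and 1375523_at r was -0.770 (permutation p = 0.0410, adjusted over the 12 pairs examined 0.261) and rho -0.490 (permutation p = 0.116), and r was -0.102 without control task replicates 4 and 6. These 2 relations rest on the arrays left out. The 2 arrays left out were those farthest from the median of the probe set named first, so arrays outlying in the other could stay in. In other pairs r rose when 2 arrays were left out. It went from 0.363 to 0.572 for 1370948_a_at and 1370949_at, and from 0.0260 to 0.538 for 1370949_at and 1375523_at. For 1370948_a_at and 1375523_at it turned from -0.572 to 0.488 without control task replicate 6 and spatial learning replicate 5. The highest rho of the 12 pairs of probe sets of 1 gene was 0.678, for 1370949_at and 1388157_at (permutation p = 0.0147, 0.177 adjusted over them). None of the 12 passed by r or by rho.

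**Figure D3:**
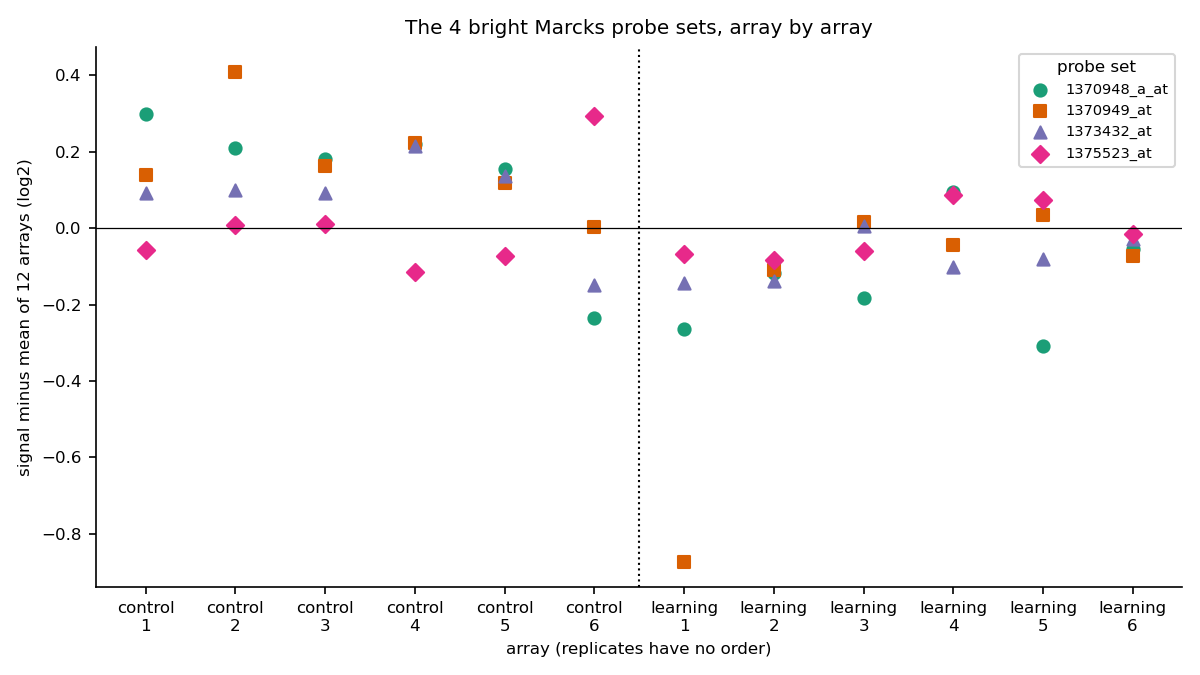
Signal of the 4 bright Marcks probe sets in each of the 12 arrays, as the deviation (log2) from that probe set's mean over the arrays; the dotted line parts the control task from the spatial learning arrays. In control arrays 1 to 5 the probe sets 1370948_a_at, 1370949_at and 1373432_at lie above 0, in control array 6 the probe set 1375523_at lies apart at the top, and 1370949_at has its lowest value in learning array 1.

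Marcksl1 encodes the MARCKS-like protein, a smaller relative with the same kind of PKC site. Its signal spanned 9.55 to 9.82 (median 9.62) in control rats and 9.27 to 9.76 (median 9.59) in learning rats. The difference was -0.09 (SE 0.07, 95% interval -0.25 to 0.07, limma adjusted p = 0.697). Of the 6 spatial learning arrays 2 lay below the lowest control and none above the highest. The difference was -0.03 without spatial learning replicate 5 and -0.05 without control task replicate 5.

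The start regions of Marcks and Marcksl1 are shown because Marcks had the largest differences and Marcksl1 is its paralogue; the arrays measured transcripts and nothing at promoters. The windows run from 250 bases before to 50 bases after the transcript start, from RefSeq on GRCr8, and 7 of the 9 members had one. Marcks lies at chr20:42245833-42246132 on the minus strand and Marcksl1 at chr5:147135577-147135876 on the plus strand. Capitals mark matches to GGGCGG (the GC box) and CCAAT (the CCAAT box) on either strand.
Marcks: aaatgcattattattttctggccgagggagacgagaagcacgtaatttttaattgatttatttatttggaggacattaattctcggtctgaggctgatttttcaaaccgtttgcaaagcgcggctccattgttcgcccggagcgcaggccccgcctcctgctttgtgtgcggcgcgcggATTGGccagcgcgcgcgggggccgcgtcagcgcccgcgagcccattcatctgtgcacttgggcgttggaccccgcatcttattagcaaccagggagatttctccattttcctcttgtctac
Marcksl1: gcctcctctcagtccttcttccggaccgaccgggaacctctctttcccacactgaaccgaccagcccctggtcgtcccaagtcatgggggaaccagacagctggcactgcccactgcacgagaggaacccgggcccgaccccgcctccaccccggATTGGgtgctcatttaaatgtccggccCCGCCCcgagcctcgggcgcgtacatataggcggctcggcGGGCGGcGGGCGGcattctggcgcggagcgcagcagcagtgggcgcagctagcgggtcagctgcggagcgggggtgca
The Marcks window held 0 GC boxes and 1 CCAAT box, and that of Marcksl1 3 GC boxes and 1 CCAAT box, with a G and C content of 53.7% and 69.0%. A GC box was found in 6 of the 7 member windows and in 33.1% of 33469 rat windows of this length, a CCAAT box in 4 of 7 and in 37.5%. TATAAA was found in 1 of 7, that of Prkcd, and in 14.2% of all. The letters TGACGTCA (a cyclic AMP response element) and TGACTCA (an AP-1 site), searched on both strands, were in 0 of 7 windows and in 1.83% and 4.63% of all.

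Nrgn encodes neurogranin, which binds calmodulin at dendritic spines. Its signal spanned 11.86 to 12.11 (median 11.96) in control rats and 11.96 to 12.18 (median 12.02) in learning rats. All 6 spatial learning arrays lay above the control median and 1 above the highest control. The difference was 0.07 (SE 0.05, 95% interval -0.03 to 0.18, limma adjusted p = 0.592), an interval that runs from 1.90% lower to 13.0% higher, and 0.05 without spatial learning replicate 4.

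Gap43 encodes GAP-43 (neuromodulin), a growth cone and presynaptic protein, and its 2 probe sets pointed opposite ways. The bright one, 1367930_at, spanned 10.44 to 10.74 (median 10.59) in control rats and 10.36 to 10.62 (median 10.39) in learning rats. There 4 of the 6 spatial learning arrays lay below the lowest control and the other 2 near the control median, with a difference of -0.15 (SE 0.06, 95% interval -0.28 to -0.02, limma adjusted p = 0.434; exact permutation p = 0.0498). The dim one, 1371287_at, spanned 3.88 to 4.21 (median 4.08) and 4.08 to 4.63 (median 4.24), with 4 of 6 spatial learning arrays above the highest control. Its difference was 0.21 (SE 0.08, 95% interval 0.03 to 0.39, limma adjusted p = 0.431; exact permutation p = 0.0368). With a mean signal of 4.17 it lies just above the level under which probe sets were left out.

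The gap between the 2 Gap43 probe sets, examined after the values of both were seen, spanned 6.34 to 6.74 (median 6.51) in control rats and 5.99 to 6.34 (median 6.16) in learning rats, and the groups just failed to overlap, the lowest control at 6.343 and the highest learning array at 6.338. The difference in the gap was -0.36, between -0.39 and -0.32 with any 1 array left out. Groups that did not overlap were found in 16 of the 1408 such gaps (1.14%), and the exact permutation p adjusted over all 1408 was 0.190, so the gap did not pass. The accessions of the 2 probe sets differ, and which part of the transcript each targets is not given in the sources used here.

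**Figure D4:**
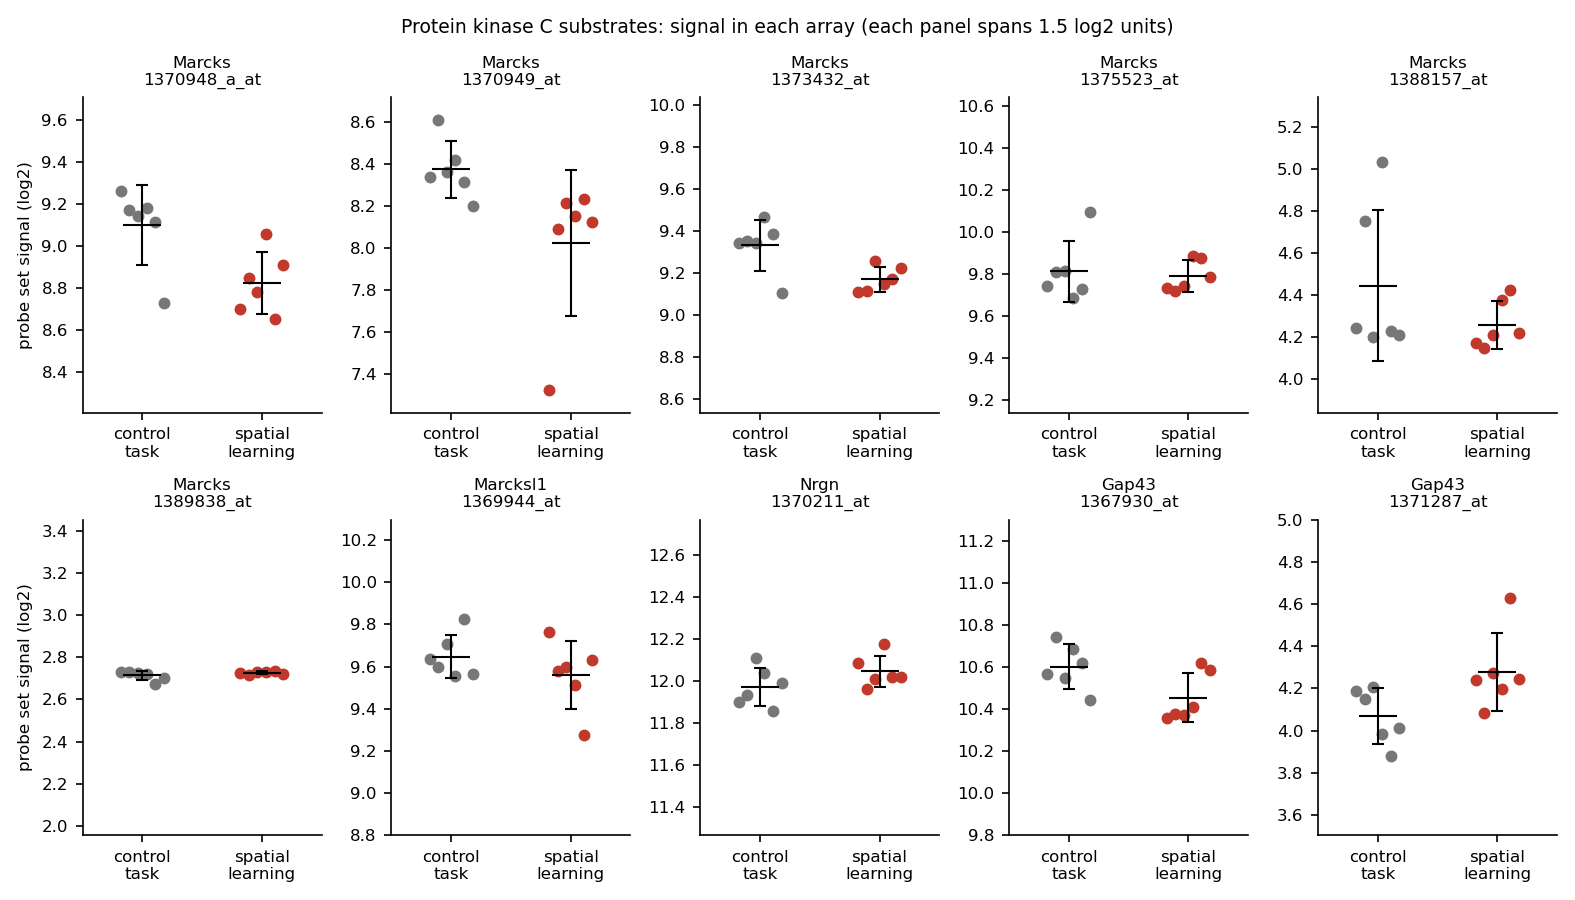
Signal (log2) of the 10 substrate probe sets in each array, grey for the control task (n = 6) and red for spatial learning (n = 6), with bars for the mean ± SD; each panel has its own axis, of the same span. In Marcks 1370948_a_at and 1373432_at 1 control array, replicate 6 at 8.73 and 9.10, lies apart from the other controls, and the Gap43 panels show opposite directions.

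The rest of the pathway was read from lists of 88 gene symbols, of which 50 had a tested probe set (the brightest of each gene). Of these 50, 27 stood higher and 23 lower after spatial learning, 0 passed in either direction, and the median difference was 0.0090 against 0.0079 over all tested probe sets. An unadjusted limma p under 0.05 was found for 12 of the 50 (24%, against 10.9% of all tested probe sets), 9 of them higher. By list the share was 57.1% for diacylglycerol kinases, 27.3% for anchoring and regulating proteins, 25% for Gq-coupled receptors and 21.4% for other substrates. It was 14.3% for Gq and phospholipase C, and 0% for other PKC family kinases, inositol trisphosphate receptors and calmodulin. The lists are short and were chosen with earlier results of these data known, so these shares cannot serve as support.

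Upstream of PKC, the Gq and phospholipase C list had 7 tested genes, 4 higher and 3 lower, with a median of 0.01. Plcg1, a phospholipase C that receptor tyrosine kinases activate, stood at 8.15 ± 0.08 in control rats and 8.35 ± 0.12 in learning rats (SD, n = 6 each). The difference was 0.20 (limma adjusted p = 0.388), with 5 of 6 spatial learning arrays above all controls. Plcl1, a relative of phospholipase C without enzyme activity, differed by -0.24 (SE 0.12, limma adjusted p = 0.473). Among 4 tested Gq-coupled receptors 1 stood higher and 3 lower (median -0.06). Chrm1, the M1 muscarinic receptor, differed by -0.20 (SE 0.07, limma adjusted p = 0.423) and Adra1d by 0.11 (SE 0.07, limma adjusted p = 0.599). Itpr1, the 1 tested inositol trisphosphate receptor, differed by 0.10 (SE 0.07, limma adjusted p = 0.645).

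Diacylglycerol kinases remove the lipid that activates PKC. Of 7 tested, 4 stood higher and 3 lower (median 0.10), and 4 (57.1%, against 10.9% of all tested probe sets) had an unadjusted limma p under 0.05 (Dgkz, Dgka and Dgkb higher, Dgkq lower). Dgkz, a diacylglycerol kinase of neurons, differed by 0.38 (limma adjusted p = 0.128). It passed without control task replicate 6 (0.42, limma adjusted p = 0.0209), an array singled out after its values were seen. It also passed without the 3 arrays picked as high in choroid plexus or meningeal transcripts, which include that array (0.45, limma adjusted p = 0.0281). Dgkz passed in no other fit. Dgka differed by 0.18 (SE 0.06, limma adjusted p = 0.400). In Dgkz and in Dgka all 6 spatial learning arrays lay above all controls. Groups did not overlap, in one direction or the other, in 0.635% of all tested probe sets.

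The other PKC family kinases had 5 tested genes, 2 higher and 3 lower, with a median of -0.03 and none at an unadjusted limma p under 0.05. Prkcq (PKC theta) differed by -0.05 (SE 0.04, limma adjusted p = 0.695) and Pkn2, a PKC-related kinase, by -0.05 (SE 0.05, limma adjusted p = 0.725). Dimmer tested probe sets of Pkn2 and Prkci went the other way from the ones taken, by 0.06 (SE 0.05) and 0.07 (SE 0.17). Among 11 anchoring and regulating proteins 7 stood higher and 4 lower (median 0.01). Zmynd8, a chromatin reader first described as a PKC-binding protein, differed by 0.15 (SE 0.04, limma adjusted p = 0.388). Pdpk1, the kinase PDK1 that primes PKC, differed by 0.09 (SE 0.04, limma adjusted p = 0.447). Dimmer tested probe sets of Zmynd8 and Pdpk1 differed by 0.09 (SE 0.09) and 0.03 (SE 0.27).

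The other PKC substrates, 14 tested genes, split into 7 higher and 7 lower, with a median of 0.0059. This split depends on the probe set taken. Dimmer tested probe sets of Add1, Gria2, Pea15 and Pld1 had the opposite sign, while those of Add3 and another of Pld1 had the same sign. Akap12, a scaffold of PKC and PKA, differed by -0.25 (SE 0.10, limma adjusted p = 0.434). Ppp1r14b, an inhibitor of protein phosphatase 1, differed by 0.10 (SE 0.04, limma adjusted p = 0.437). Calm2, the 1 tested calmodulin gene and the partner of neurogranin and GAP-43, differed by 0.0040 (SE 0.05, 95% interval -0.10 to 0.10, limma adjusted p = 0.984).

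**Figure D5:**
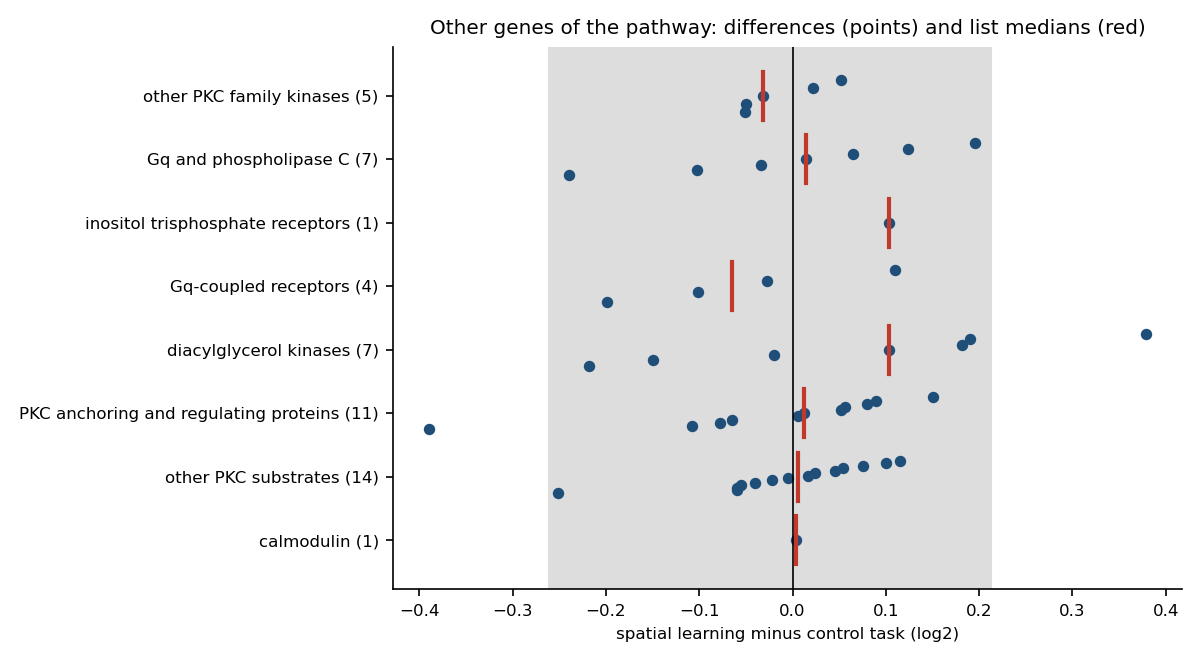
Difference in signal (spatial learning minus control task, log2) of the tested genes in the 8 pathway lists, 1 point per gene, with the list median in red and, in grey, the middle 95% of all 9610 tested probe sets (-0.26 to 0.21). Dgkz lies farthest to the right at 0.38 and Akap5 farthest to the left at -0.39, and no point passed the test.

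Genes whose deviations from the group means were most like those of the brightest probe set of each member were taken by Pearson r over the 12 arrays, from 7996 tested probe sets of other genes. For Prkcb these were Ppp3ca (r = 0.947), a catalytic subunit of calcineurin, and Pcdha13 (r = 0.928). For Prkca they were Ddx23 (0.921) and Gfra1 (0.906), for Prkcd Lrp1 (0.887) and Slc38a10 (0.869), for Prkce Ddx24 (0.920) and Lsamp (0.905), and for Prkcz Sorl1 (0.853) and Car11 (0.825). Among the substrates, Marcks had Mlip (0.924) and Aurkc (0.920), Marcksl1 had Cracd (0.933) and Hectd3 (0.897), Nrgn had Synj2bp (0.897) and Rragc (0.892), and Gap43 had Dact3 (0.938) and Syde1 (0.926). For Marcks the probe set was 1375523_at, which did not share the pattern of the other bright Marcks probe sets. In it control task replicate 6 stood at 10.10, against at most 9.81 in the other controls. The part of that array in the correlations was not tested. All correlations listed here are the highest of many over few arrays that share their normalization, and no other member was a candidate.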

How the data were processed

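RNA of dissected CA1 was measured on 12 arrays, 6 per group, grouped by the titles, which name them as biological replicates. The deposited values are log2 probe set summaries made by the authors with GCRMA, per the submitters' processing notes, with no version given in the sources used here; the log2 scale was read from the range, 0.134 to 14.8. GCRMA equalises the arrays' distributions, which hides changes in total RNA, and dim probe sets show compressed differences. The number of arrays limits the precision.

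Gene symbols come from the platform annotation, which can be old. Of 15866 non-control probe sets, 12783 had 1 symbol, 312 several and 2771 none here. The 9610 with a mean of at least 4 entered a 2-sided limma fit (version 3.58.1, R 4.3.3) on group alone, with eBayes and its trend option, and p-values were adjusted by Benjamini-Hochberg. SEs and 95% intervals are limma's. Single values were compared by 2-sided exact permutation over the 924 ways to choose 6 of 12 arrays. Correlations used 100000 permutations within groups. Text names all member probe sets, the 2 genes of smallest p in each pathway list, and the 2 genes most like each member; Dgkq, Dgkb and Akap5 were named after their values were seen. Members and lists were chosen with earlier results of these data known. The fit was checked on simulated arrays with known changes of 0.5 and 1 on the log2 scale, of which it recovered 84% and 92%. Changes as small as the member differences were not simulated, so the check does not show how often those would be found. Alternatives covered filters, variance models, scaling, a replicate block, a rank test, a covariate and left-out arrays.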

Additional observations from a re-analysis of the deposited data

Results flagged for a closer look

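In 6 of the 30 groups of 6 arrays examined (15 probe sets, 2 groups each), the highest or lowest array stood apart from the others, its gap to the nearest array taking more of the group's range than Dixon's 95% critical value, where chance gives about 1 in 20. Control task replicate 6 did so in 3 Marcks probe sets: lowest in 1370948_a_at (8.73 against 9.11, 0.732 of the range) and in 1373432_at (9.10 against 9.34, 0.657), and highest in 1375523_at (10.10 against 9.81, 0.689). Spatial learning replicate 1 was lowest in Marcks 1370949_at (7.32 against 8.09, 0.842). Spatial learning replicate 6 was lowest in Prkcb 1370585_a_at (12.76 against 12.92, 0.680), and without it the difference was 0.16. Spatial learning replicate 5 was highest in Gap43 1371287_at (4.63 against 4.27, 0.655), and without it the difference was 0.14.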

How the results depend on the processing

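No member probe set passed at an adjusted p of 0.05 in any of the 22 other fits, and of the 240 member values in the 16 fits that estimate the differences anew 233 kept their sign. The sign turned for Prkcz with the hexokinase gap as a covariate (0.0857). It also turned for Prkcz without the 3 arrays picked as high in choroid plexus or meningeal transcripts (0.0254). The sign for Prkcz turned as well without control task replicate 4 (0.0061) and without spatial learning replicate 6 (0.0288). It turned for Marcks 1375523_at without those 3 arrays (0.0494) and without control task replicate 6 (0.0342), and for Prkca without spatial learning replicate 4 (0.0549); the cause was not tested. With 1 array left out these 3 ranged from -0.0616 to 0.0288, from -0.0474 to 0.0342 and from -0.116 to 0.0549. The count of members with an unadjusted limma p under 0.05 was 7 in the main fit (10.9% of all tested probe sets). It was 2 with the hexokinase covariate, which nearly follows the groups (6.3% of all), and 3 with the replicate block (8% of all). With 1 array left out it was 4 to 7, and 4 without control task replicate 2, 4 or 5. Without control task replicate 6 it was 6 (11.9% of all), and the share over all probe sets is not given here for the other left-out arrays. Over all probe sets 5 passed without the 3 arrays and 0 to 3 with 1 array left out, and of the pathway genes 1 (Dgkz) and 0 to 1. Deviations of same-numbered arrays correlated between -0.171 and 0.0821, and 1 of 6 control arrays correlated best with its own number, so the numbers were not taken to pair animals. The replicate block called 0 probe sets, with a smallest adjusted p of 0.285. The dim probe sets of Marcks and Gap43, near a signal of 4, give the least secure values.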
